A study of Mus musculus with 6 samples.

Results

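Proliferation and cyclin genes are described here as 10 genes picked by symbol from the 46095 genes of the count table: *Mki67*, *Top2a*, *Cdk1*, *Ccna2*, *Ccnb1*, *Ccnb2*, *Mcm2*, *Ccnd1*, *Ccnd2* and *Ccne1*. All 10 were found. The RNA came from primary renal tubular epithelial cells (PTECs) freshly isolated from 10-week-old mice on a C57 background. Under the VHL-KO label (replicates 1, 2 and 4), Ksp-Cre, a Cre transgene driven by the *Cdh16* promoter of kidney tubules, deleted floxed *Vhl*. Under the VHL-KO;SETD2-KO label (replicates 2, 3 and 4), the same transgene deleted floxed *Vhl* and floxed *Setd2*, which encodes the enzyme of H3K36 trimethylation. Loss of *Vhl* was therefore shared by both groups, no group with intact *Vhl* was analysed here, and other cells that do not express *Cdh16* keep both genes. The 3 libraries per genotype were compared as separate samples, each group coming from 3 mice.

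A dividing cell passes its checkpoints by making cyclins, which switch on cyclin dependent kinases, and by destroying them again. D-type cyclins answer growth signals and act early in G1 by helping to inactivate RB, E-type cyclins drive entry into S phase, and A- and B-type cyclins with CDK1 carry the cell into mitosis. The mature tubule epithelium is mostly quiescent, and genes of S phase and mitosis are found in the few cells in cycle, whereas D-type cyclins are also made by many cells outside the cycle. In quiescent cells the DREAM complex and its MuvB core hold mitotic genes silent through an element called CHR, and NF-Y binds the CCAAT boxes of the same promoters.

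The promoters of the mitotic genes are shown because most of them carry these elements. A RefSeq promoter (GRCm38.p6) was found for 7 of the 10 genes. *Ccna2*, *Ccnd1* and *Ccnd2* had no entry. The windows below run 5′ to 3′ on the minus strand of *Mki67* (chr7:135716350-135716629), *Top2a* (chr11:99024160-99024439), *Cdk1* (chr10:69352883-69353162), *Ccnb1* (chr13:100786457-100786736) and *Ccnb2* (chr9:70421525-70421804), from 250 bases before the start site into the first 30 bases of the transcript. Capitals mark CCAAT or its complement ATTGG, the CHR element TTTGAA or TTCGAA or their complements (TTCAAA for the first), and, in *Cdk1* alone, the E2F motif TTTCGCGC.
Mki67: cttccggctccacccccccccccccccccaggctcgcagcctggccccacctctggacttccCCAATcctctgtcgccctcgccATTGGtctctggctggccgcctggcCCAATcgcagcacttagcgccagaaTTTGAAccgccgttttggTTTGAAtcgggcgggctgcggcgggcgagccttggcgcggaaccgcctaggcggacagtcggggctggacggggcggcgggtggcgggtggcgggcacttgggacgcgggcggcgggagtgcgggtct
Top2a: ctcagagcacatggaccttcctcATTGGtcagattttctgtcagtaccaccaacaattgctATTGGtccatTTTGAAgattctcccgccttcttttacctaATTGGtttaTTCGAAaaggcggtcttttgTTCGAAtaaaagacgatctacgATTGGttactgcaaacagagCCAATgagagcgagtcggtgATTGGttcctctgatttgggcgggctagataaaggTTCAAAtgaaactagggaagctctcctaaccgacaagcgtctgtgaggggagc
Cdk1: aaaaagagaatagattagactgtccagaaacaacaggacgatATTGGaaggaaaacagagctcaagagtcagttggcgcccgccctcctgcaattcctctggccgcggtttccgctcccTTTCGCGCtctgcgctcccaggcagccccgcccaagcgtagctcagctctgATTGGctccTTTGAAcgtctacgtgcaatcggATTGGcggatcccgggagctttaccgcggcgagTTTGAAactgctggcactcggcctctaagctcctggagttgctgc
Ccnb1: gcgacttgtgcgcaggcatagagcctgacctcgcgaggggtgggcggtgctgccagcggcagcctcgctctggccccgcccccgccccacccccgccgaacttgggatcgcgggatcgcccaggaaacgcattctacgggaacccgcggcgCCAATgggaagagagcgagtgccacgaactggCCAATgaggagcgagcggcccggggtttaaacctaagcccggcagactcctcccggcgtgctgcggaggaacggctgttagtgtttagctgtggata
Ccnb2: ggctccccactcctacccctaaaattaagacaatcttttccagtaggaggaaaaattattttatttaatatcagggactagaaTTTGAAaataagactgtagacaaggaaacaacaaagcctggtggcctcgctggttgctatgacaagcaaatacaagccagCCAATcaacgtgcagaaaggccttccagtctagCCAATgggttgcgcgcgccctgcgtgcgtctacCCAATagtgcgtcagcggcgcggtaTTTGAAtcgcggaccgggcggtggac

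CCAAT was matched 3 times in *Mki67*, 6 times in *Top2a*, 3 times in *Cdk1*, 2 times in *Ccnb1* and 3 times in *Ccnb2*, counting both strands over the 300-base window. In *Ccnb2* the boxes began at positions -87, -54 and -21 from the start site, 33 bases apart each time, and those of *Ccnb1* at -99 and -67 were 32 bases apart. The starts of neighbouring boxes were 22 and 25 bases apart in *Mki67*, 128 and 32 in *Cdk1* and between 20 and 51 in *Top2a*, so that no spacing was shared by all 5 promoters. Of all 32851 promoters of the same length, 37.4% held at least 1 CCAAT, 11.7% at least 2 and 3.37% at least 3. A CHR element was matched 2 times in *Mki67*, 4 times in *Top2a*, 2 times in *Cdk1* and 2 times in *Ccnb2*, against 19.2% of promoters with at least 1, and these letters were not in the *Ccnb1* window. *Mcm2* held 1 CCAAT and 1 CHR match, and *Ccne1* held neither. Of the E2F motifs TTTCCCGC, TTTGGCGC, TTTCGCGC and TTTGCCGC, the *Cdk1* match at -131 was the only one among the 7 genes, and 2.26% of promoters held at least 1 of them. No matches overlapped. A match is a string of letters in the reference sequence, and binding was not measured.

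The 6 libraries held between 11168552 and 17883466 counts each. Levels are given as CPM, the counts scaled to a common library size after TMM normalization, and a floor of 3 counts lay at 0.159 to 0.281 CPM (counting error only). *Setd2*, the gene named in the second label, was not lower under it: it had 71.5, 73.9 and 12.3 CPM in VHL-KO replicates 1, 2 and 4, and 79.6, 57.4 and 89.6 CPM in VHL-KO;SETD2-KO replicates 2, 3 and 4. These are counts over the whole gene, and the floxed part was not measured apart. *Vhl*, floxed in both, had 14.1, 12.9 and 25.8 CPM and 14.4, 17.9 and 11.9 CPM. Directions below therefore refer to the libraries as labelled. The library labelled VHL-KO replicate 4 stood apart, with a median Spearman correlation of 0.741 with the others, against 0.942 to 0.961 for the remaining 5, and each result is given with and without it where it matters. All 12 proximal tubule markers were detected in every library, but markers of 9 other cell classes were present too. Detection alone therefore cannot single out the labelled cell type. By summed CPM the proximal tubule list was the highest of the marker lists in every library, though the lists differ in length. Proximal tubule markers summed to between 20974 and 29303 CPM under VHL-KO and to between 9056 and 11213 CPM under VHL-KO;SETD2-KO.

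The question put to these genes was whether PTECs labelled VHL-KO;SETD2-KO differed from those labelled VHL-KO in transcripts of the cell cycle. None of the 9 genes that could be tested passed the test between the genotypes. At an unadjusted p under 0.05 with a fold change of at least 1.5, edgeR's quasi-likelihood test called 0 of the 9 higher and 0 lower, where 2.65% of the 14611 genes tested were called higher and 4.68% lower. After Benjamini-Hochberg adjustment over all genes the members again gave 0 calls, and the share called among all genes was 0% higher and 0.00684% lower. DESeq2 and limma-voom also called 0 of the 9. Under VHL-KO;SETD2-KO 5 genes had an estimate above 0 and 4 below it, with a median log2 fold change of 0.13 against 0.00947 for all genes tested. The 2 sets of libraries overlapped for all 10 genes. Among all genes tested, 9.62% were higher without overlap and 11.0% lower without overlap.

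**Figure D1:**
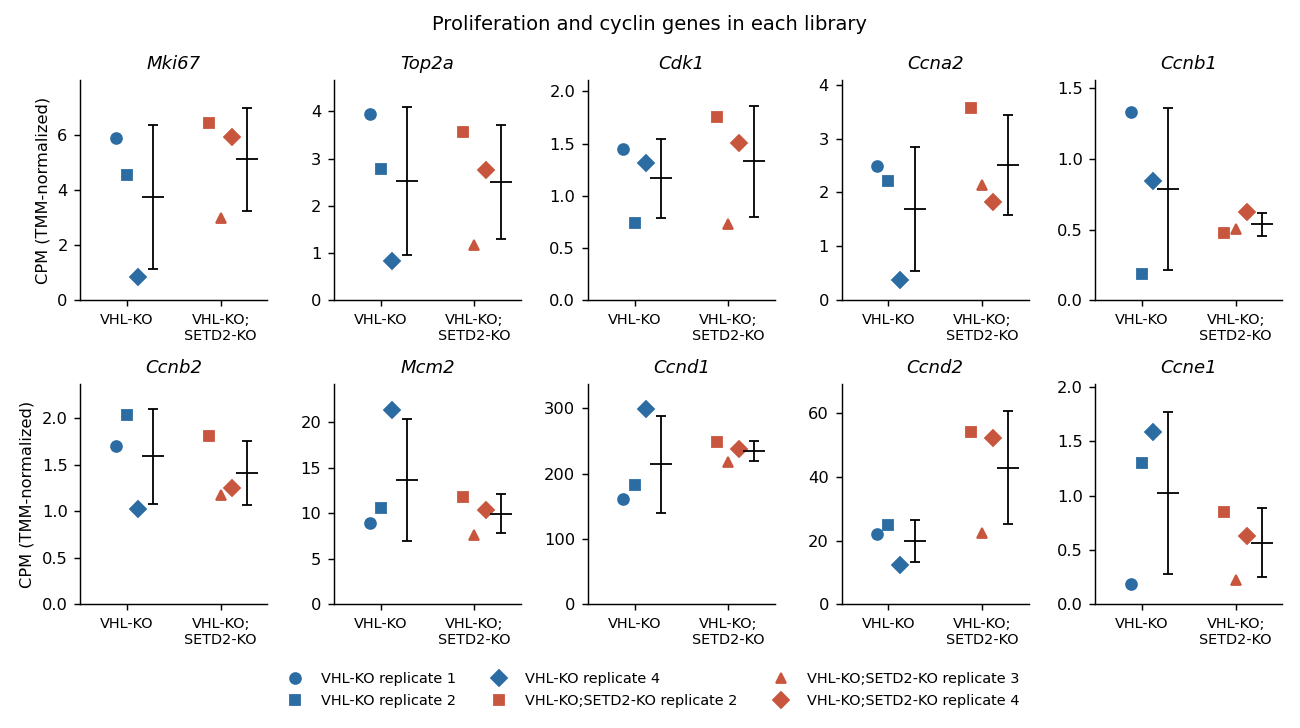
Each panel plots 1 gene in TMM-normalized CPM (vertical axes from 0), with 1 point per library and the mean ± SD of the 3 libraries of a label beside the points. VHL-KO replicate 4 (blue diamond) is lowest for *Mki67*, *Top2a*, *Ccna2*, *Ccnb2* and *Ccnd2* and highest for *Mcm2*, *Ccnd1* and *Ccne1*, and the labels overlap in every panel.

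Compared per kilobase of the longest transcript over all 6 libraries, the levels fell into a wide order led by *Ccnd1* at 59.9 ± 13.2 CPM per kb (SD, n = 6). *Ccnd2* followed at 4.95 ± 2.75 and *Mcm2* at 3.38 ± 1.40 CPM per kb. *Ccnd1* was above *Ccnd2* in all 6 libraries with no overlap of their ranges, *Ccnd2* was above *Mcm2* in 5 of the 6, and *Mcm2* was above *Ccnb2* in all 6 with no overlap. Below these stood *Ccnb2* (0.98 ± 0.262 CPM per kb), *Ccna2* (0.708 ± 0.349), *Top2a* (0.481 ± 0.240), *Mki67* (0.44 ± 0.214), *Ccne1* (0.397 ± 0.284), *Cdk1* (0.286 ± 0.0966) and *Ccnb1* (0.266 ± 0.158). The ranges of every pair of neighbours among these last 7 overlapped. Of the raw counts of the 10 genes, *Ccnd1* alone took 77.0%, 78.7% and 88.1% in the VHL-KO libraries and 74.6%, 84.7% and 75.6% in the VHL-KO;SETD2-KO libraries, in the order of replicates above.

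The mitotic genes were low in all libraries. *Mki67*, which encodes the Ki-67 antigen that coats mitotic chromosomes and marks cycling cells, had 5.88, 4.53 and 0.842 CPM under VHL-KO and 6.43, 2.98 and 5.90 CPM under VHL-KO;SETD2-KO. The low library was VHL-KO replicate 4, with 9 reads (exact 95% Poisson interval 0.385 to 1.60 CPM, counting error only), while the other 5 held between 49 and 121 reads. The means were 3.75 ± 2.61 and 5.10 ± 1.85 CPM (SD, n = 3 each), a log2 fold change of 0.44 (SE 0.70, edgeR adjusted p = 0.827), and without that library it was -0.0372. *Top2a*, the topoisomerase that untangles sister chromatids, had 3.94, 2.78 and 0.842 CPM under VHL-KO and 3.56, 1.18 and 2.76 CPM under VHL-KO;SETD2-KO. Its 2 lowest libraries, VHL-KO replicate 4 and VHL-KO;SETD2-KO replicate 3, carried different labels, and the means were nearly equal at 2.52 ± 1.57 and 2.50 ± 1.21 CPM (log2 fold change -0.02, 95% interval -1.59 to 1.55, edgeR adjusted p = 0.994).

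*Cdk1*, the kinase that drives entry into mitosis, had 1.45, 0.740 and 1.31 CPM under VHL-KO and 1.75, 0.732 and 1.51 CPM under VHL-KO;SETD2-KO. Each label had 1 low library, VHL-KO replicate 2 with 8 reads and VHL-KO;SETD2-KO replicate 3 with 13. The estimate was 0.18 (95% interval -1.13 to 1.49, edgeR adjusted p = 0.915). *Ccna2*, cyclin A2, partner of CDK2 in S phase and of CDK1 later, had 2.49, 2.22 and 0.374 CPM under VHL-KO and 3.56, 2.14 and 1.82 CPM under VHL-KO;SETD2-KO. Only VHL-KO replicate 4, at 4 reads, lay outside the span of 1.82 to 3.56 CPM. The estimate of 0.56 (SE 0.71, edgeR adjusted p = 0.796) became 0.0879 without that library.

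The B-type cyclins activate CDK1 at the start of mitosis. *Ccnb1* had 22, 2 and 9 reads under VHL-KO and 9, 9 and 10 under VHL-KO;SETD2-KO, or 1.33, 0.185 and 0.842 CPM and 0.478, 0.507 and 0.627 CPM. It did not pass the filter on low counts. VHL-KO replicates 1 and 2 were the highest and the lowest of all 6, so that the VHL-KO;SETD2-KO libraries lay inside the range of the VHL-KO ones. The difference of mean log2 CPM was -0.20 (exact permutation test, two-sided, p = 0.8, where 3 libraries against 3 can give no less than 0.1). *Ccnb2* was the steadiest of the mitotic genes, with a 1.98-fold span over the 6 libraries: 1.70, 2.04 and 1.03 CPM under VHL-KO and 1.81, 1.18 and 1.25 CPM under VHL-KO;SETD2-KO. Its estimate was -0.17 (95% interval -1.36 to 1.02, edgeR adjusted p = 0.914).

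Summed over the 6 mitotic genes, the level was 16.8, 12.5 and 5.24 CPM under VHL-KO and 17.6, 8.73 and 13.9 CPM under VHL-KO;SETD2-KO, from 56 to 331 reads a library. The 95% interval of each of the 5 mitotic genes tested held a 2-fold difference in either direction, so that such a difference was not excluded with all 6 libraries. Without VHL-KO replicate 4 the intervals were narrower for *Mki67* (-1.0 to 0.92), *Ccna2* (-0.93 to 1.11), *Ccnb2* (-1.37 to 0.58) and *Top2a* (-1.70 to 0.83), and that of *Cdk1* was -1.14 to 1.63.

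*Mcm2*, a subunit of the MCM helicase that licenses replication origins in G1, ran against the mitotic genes in one library. It had 8.97, 10.6 and 21.3 CPM under VHL-KO and 11.8, 7.60 and 10.4 CPM under VHL-KO;SETD2-KO. VHL-KO replicate 4, lowest for *Mki67*, was highest for *Mcm2*, and the ratio of *Mki67* to *Mcm2* CPM was 0.0395 there against 0.393 to 0.655 in the other 5 libraries. The estimate for *Mcm2* was -0.45 (SE 0.46, 95% interval -1.52 to 0.61, edgeR adjusted p = 0.751), and without that library it was 0.0207. *Ccne1*, cyclin E1, the CDK2 partner of the G1 to S transition, had 3, 14 and 17 reads under VHL-KO and 16, 4 and 10 under VHL-KO;SETD2-KO. These are 0.182, 1.30 and 1.59 CPM and 0.850, 0.225 and 0.627 CPM, so 1 library of each label stood at or near the floor of 3 reads. The estimate of -0.82 had the widest interval of the 9 genes (-2.78 to 1.15, edgeR adjusted p = 0.758), and without VHL-KO replicate 4 it was -0.30 (-2.62 to 2.03).

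*Ccnd1*, cyclin D1, the CDK4 and CDK6 partner that links growth signals to RB, is known as a HIF target in renal carcinoma cells without VHL. It had 161, 182 and 299 CPM under VHL-KO and 248, 217 and 238 CPM under VHL-KO;SETD2-KO. VHL-KO replicate 4 was again the extreme, above every VHL-KO;SETD2-KO library, whereas VHL-KO replicates 1 and 2 were below them all. The means were 214 ± 74.4 and 234 ± 16.0 CPM (SD, n = 3 each), a log2 fold change of 0.13 (SE 0.42, 95% interval -0.83 to 1.09, edgeR adjusted p = 0.916). Without VHL-KO replicate 4 the estimate was 0.45 (95% interval 0.06 to 0.83, edgeR adjusted p = 0.204), a 1.36-fold difference that stayed under the 1.5-fold threshold.

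*Ccnd2*, cyclin D2, acts with the same kinases as cyclin D1 and came nearest to a call. It had 22.1, 24.9 and 12.3 CPM under VHL-KO and 54.0, 22.5 and 52.1 CPM under VHL-KO;SETD2-KO. Replicates 2 and 4 of VHL-KO;SETD2-KO were about level and above all others, and VHL-KO;SETD2-KO replicate 3 lay among the VHL-KO libraries. The means were 19.8 ± 6.59 and 42.9 ± 17.7 CPM (SD, n = 3 each), a 2.17-fold difference (log2 fold change 1.12, SE 0.49, 95% interval -0.01 to 2.24, edgeR adjusted p = 0.625). The call turned on the choice of libraries and filter. It was past the unadjusted threshold without VHL-KO;SETD2-KO replicate 3 (1.43, 95% interval 0.24 to 2.61, edgeR adjusted p = 0.753) and with no filter on low counts (1.15, 95% interval 0.05 to 2.26, edgeR adjusted p = 0.755). It was short of it without VHL-KO replicate 4 (0.86, 95% interval -0.09 to 1.82, edgeR adjusted p = 0.277).

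**Figure D2:**
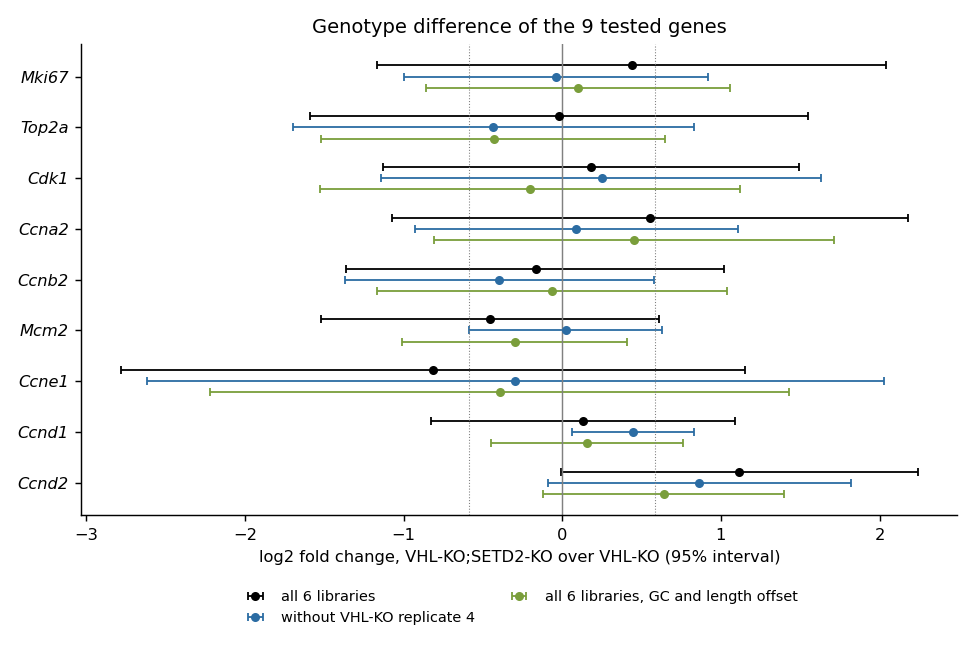
The log2 fold change of VHL-KO;SETD2-KO over VHL-KO (horizontal axis) with its 95% interval is plotted for the 9 tested genes from all 6 libraries (black), without VHL-KO replicate 4 (blue) and with an offset for GC content and transcript length (green). Dotted lines mark a 1.5-fold change, and only the *Ccnd1* interval without replicate 4, from 0.06 to 0.83, clears 0.

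Markers of endothelium and podocytes, cells outside the tubule, were high in the same libraries as *Ccnd2*. The 8 endothelial markers summed to 1841, 2227 and 1645 CPM under VHL-KO and to 5179, 1748 and 4114 CPM under VHL-KO;SETD2-KO, and the 7 podocyte markers to 1508, 2039 and 2382 CPM and 5082, 2102 and 4495 CPM. The libraries high for both lists were VHL-KO;SETD2-KO replicates 2 and 4, as for *Ccnd2*, and no marker of either list was at 0 in any library. Of the single markers, 6 of the 8 endothelial and 5 of the 7 podocyte ones were highest in these 2 libraries, among them *Kdr*, the VEGF receptor of endothelium, with 580, 708 and 210 CPM and 1611, 467 and 1328 CPM. The endothelial exceptions were *Plvap*, with 15.5, 11.5 and 198 CPM and 35.4, 78.4 and 9.97 CPM, and *Eng*, with 580 CPM in VHL-KO replicate 4 and 557 CPM in VHL-KO;SETD2-KO replicate 4. Per 1000 CPM of endothelial markers, *Ccnd2* stood at 12, 11.2 and 7.51 CPM under VHL-KO and 10.4, 12.9 and 12.7 CPM under VHL-KO;SETD2-KO, which overlapped. Per 1000 CPM of podocyte markers it stood at 14.7, 12.2 and 5.18 CPM and at 10.6, 10.7 and 11.6 CPM, which overlapped too. Across the 6 libraries, log2 CPM of *Ccnd2* had a median Pearson r of 0.96 with the 8 endothelial markers, against 0.11 with all genes. With the 7 podocyte markers the median r was 0.84. Without VHL-KO replicate 4 the medians were 0.97 for endothelial and 0.94 for podocyte markers, against -0.01 with all genes. These points share libraries and depth, so each r is a description. The part of these cells in the level of *Ccnd2* was not tested, and in bulk RNA more cells of a type and more RNA per cell cannot be told apart.

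**Figure D3:**
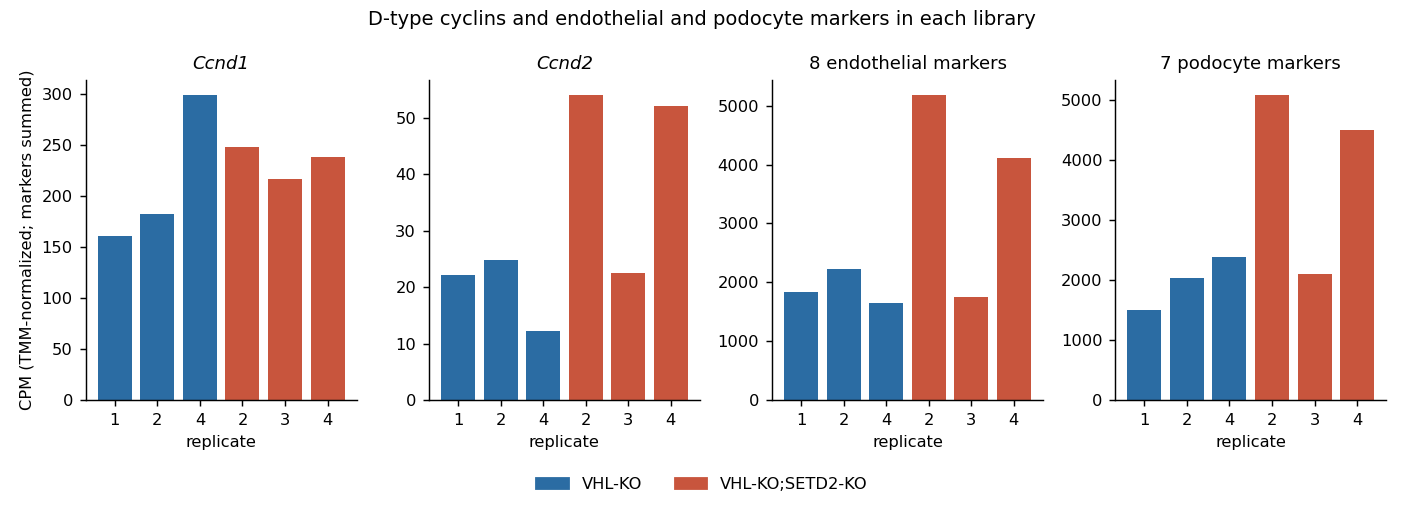
Bars give CPM (from 0) of *Ccnd1*, of *Ccnd2* and of the summed endothelial and podocyte markers, 1 bar per library, labelled by replicate number and coloured by genotype label. *Ccnd2* and both marker sums are highest in VHL-KO;SETD2-KO replicates 2 and 4, whereas *Ccnd1* is highest in VHL-KO replicate 4 at 299 CPM.

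*Ccnd1* followed the podocyte markers more closely once VHL-KO replicate 4 was left out. Its median Pearson r with the 7 podocyte markers was 0.46 over 6 libraries and 0.97 over 5, against 0.01 and 0.03 for all genes. Per 1000 CPM of podocyte markers, *Ccnd1* was at 107, 89.1 and 126 CPM under VHL-KO and 48.8, 103 and 53.0 CPM under VHL-KO;SETD2-KO. The third D-type cyclin, *Ccnd3*, was not among the 10 genes and had 39.4, 50 and 213 CPM under VHL-KO and 55.6, 64.3 and 48.7 CPM under VHL-KO;SETD2-KO. *Ccnd1* exceeded *Ccnd3* by 3.37 to 4.89 times in 5 libraries and by 1.40 times in VHL-KO replicate 4, as a ratio of CPM. The ratio of *Ccnd1* to *Ccnd2* CPM was 24.2 in that library and between 4.57 and 9.62 in the others.

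What set VHL-KO replicate 4 apart ran along the length and base composition of transcripts. Over 14127 genes with a GENCODE transcript, the log2 ratio of this library to the mean of VHL-KO replicates 1 and 2 had a Spearman correlation of 0.73 with GC content and -0.40 with length, across genes, which are not independent replicates. From the lowest to the highest of 5 equal groups of genes by GC content, its median was -2.06, -1.22, -0.03, 1.00 and 1.47. *Mki67* (46.6% GC, 10061 bases) stood at 0.162 times the other VHL-KO libraries, *Ccna2* (46.1% GC) at 0.159 times and *Top2a* (43.4% GC) at 0.251 times. *Ccnd1* (50.9% GC), *Ccne1* (52.7% GC) and *Mcm2* (51.7% GC) stood at 1.74, 2.15 and 2.17 times. *Ccnd2* (47.1% GC, 6330 bases) and *Ccnb2* (49.3% GC) stood at 0.525 and 0.551 times. *Setd2*, at 44.3% GC and 8350 bases, stood at 0.17 times. The genes of lower GC content were thus mostly low in this library and those of higher GC content high, with *Ccnb1* (44.2% GC, 1.11 times) and *Cdk1* (47.8% GC, 1.19 times) as exceptions. With an offset for both properties, chosen after the data were seen, the estimates were 0.0963 for *Mki67*, -0.43 for *Top2a*, 0.45 for *Ccna2*, -0.30 for *Mcm2*, 0.16 for *Ccnd1* and 0.64 for *Ccnd2* (95% interval -0.12 to 1.40). None was called. Mitochondrial genes took 11.3% of the counts of this library and between 25.9% and 36.4% of the others, and how it came to differ was not tested.

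**Figure D4:**
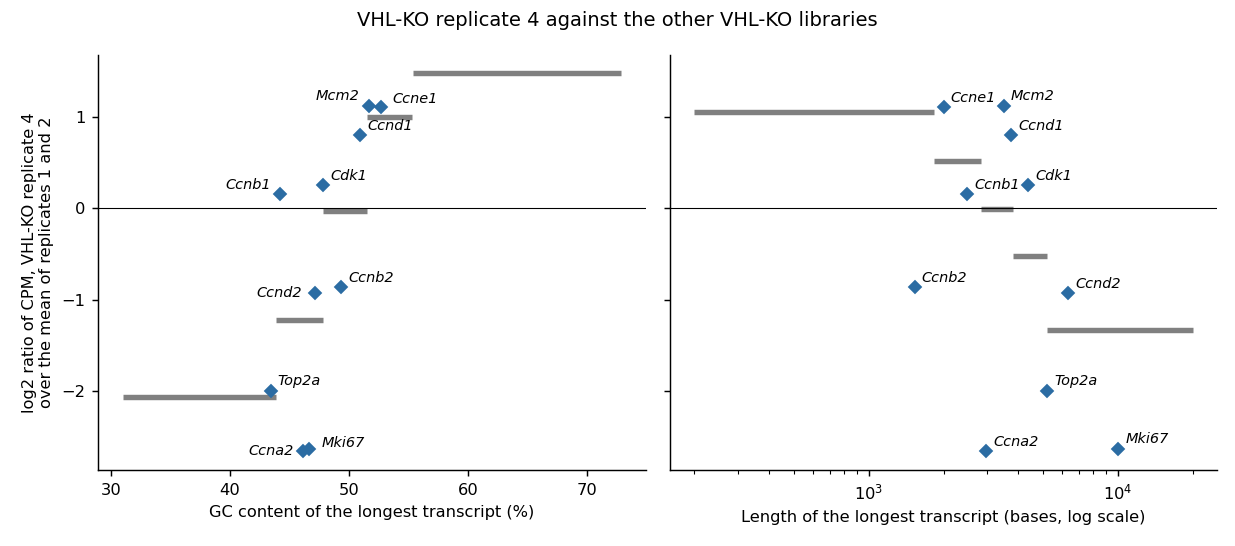
The log2 ratio of CPM in VHL-KO replicate 4 over the mean of VHL-KO replicates 1 and 2 (vertical axis) is plotted for the 10 genes against GC content (left) and length (right, log scale) of the longest transcript. Grey bars give the median of all genes in each of 5 equal groups by that property, which climbs from -2.06 to 1.47 with GC content and drops from 1.05 to -1.33 with length.

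The other genes of the cell cycle gave few calls. Of 31 replication factors 29 were tested, 0 were called higher and 1 lower by edgeR at an unadjusted p, against 2.65% and 4.68% of all genes tested, with a median log2 fold change of -0.13. At 1 of 29 the list was not above this background. The 1 called gene was *Tk1*, thymidine kinase of the salvage pathway, which peaks in S phase. It had 5.52, 7.49 and 12.1 CPM under VHL-KO and 2.28, 3.94 and 3.51 CPM under VHL-KO;SETD2-KO, with no overlap (log2 fold change -1.36, 95% interval -2.47 to -0.25, edgeR adjusted p = 0.625). Of the 29 tested, 1 was higher and 3, *Tk1* included, were lower without overlap, where 9.62% and 11.0% of all genes were. Without VHL-KO replicate 4 its estimate was -1.0 (95% interval -1.82 to -0.18, edgeR adjusted p = 0.187), and with the offset -1.08 (-1.84 to -0.33, adjusted p = 0.233). The unadjusted call was lost without VHL-KO;SETD2-KO replicate 2, without VHL-KO;SETD2-KO replicate 4 and with the replicate number as a block. The block estimate rests on the libraries numbered 2 and 4 alone. With all 6 libraries the estimates of the MCM subunits differed in sign, none past the threshold. *Mcm3* and *Mcm4* were at 0.65 and 0.89, and *Mcm5*, *Mcm6* and *Mcm7* at -0.71, -0.32 and -0.58. VHL-KO replicate 4 was the lowest library for *Mcm4* (7.70, 9.25 and 1.59 CPM under VHL-KO). It was the highest for *Mcm5* (4.73, 5.46 and 16.1 CPM) and *Mcm7* (17.9, 17.3 and 40.1 CPM), and neither for *Mcm3* and *Mcm6*. The part of that library in the split was not tested. The highest estimate of the list was that of *Pola1*, the catalytic subunit of DNA polymerase alpha (0.91), with 0 reads in VHL-KO replicate 4.

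Of 39 mitotic genes, the 6 above included, 33 were tested and 0 were called in either direction. Of all genes tested, 2.65% were called higher and 4.68% lower. The mitotic list had 16 estimates above 0, 17 below and a median of -0.02. *Kif23*, a kinesin of the central spindle, was highest at 1.32 (2.06, 2.50 and 0.0935 CPM against 4.09, 4.96 and 2.63 CPM, edgeR adjusted p = 0.642). It was the only 1 of the 33 without overlap, where 9.62% of all genes were higher and 11.0% lower without overlap. *Nusap1*, a spindle microtubule protein, was lowest at -0.85. Summed over this list, the level was 92.7, 77.8 and 46.5 CPM under VHL-KO and 87.0, 49.8 and 74.9 CPM under VHL-KO;SETD2-KO, so that 1 library of each label, VHL-KO replicate 4 and VHL-KO;SETD2-KO replicate 3, was low. Replication factors summed to between 226 and 286 CPM in all 6 libraries, and these 2 libraries were again the lowest, at 257 and 226 CPM.

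The genes that set cyclin activity gave 0 calls as well, where 2.65% of all genes tested were called higher and 4.68% lower. Among cyclin dependent kinases and activators, 11 of 12 were tested (median 0.13), among them *Cdk4*, the D-type cyclin kinase (-0.63), and *Cdk2* (0.13). *Cdk4* had 44.9, 41.7 and 130 CPM under VHL-KO and 51.1, 47.0 and 41.5 CPM under VHL-KO;SETD2-KO, so only VHL-KO replicate 4 stood apart. The highest and lowest were *Cdk7*, the kinase that activates other cyclin dependent kinases (0.50), and *Cks2*, a CDK-binding subunit (-0.67). Of 7 CDK inhibitors 5 were tested (median 0.047). *Cdkn1b*, the inhibitor p27 of quiescent cells, was highest, with 33.6, 31.4 and 11.6 CPM under VHL-KO and 39.4, 41.2 and 42.7 CPM under VHL-KO;SETD2-KO (0.69), and *Cdkn2d* lowest at -0.19. Of 20 RB, E2F and DREAM factors 19 were tested (median 0.25), with *Rb1*, the retinoblastoma protein, highest at 0.77 (30.9, 35.8 and 5.14 CPM against 40.0, 41.7 and 41.0 CPM) and *E2f2* lowest at -1.02. Without overlap were 1 of the 5 inhibitors (*Cdkn1b*), 2 of the 19 RB, E2F and DREAM factors (*Rb1* and *E2f6*) and 2 of the 11 kinases and activators (*Cdk7* and *Cdc25a*), all higher, where 9.62% of all genes were. All 5 were lowest in VHL-KO replicate 4.

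All 24 genes of cyclin destruction, the APC/C and SCF ubiquitin ligases, were tested with 0 calls. The shares among all genes tested were 2.65% called higher and 4.68% lower. Of the 24 estimates, 9 were above 0 and 15 below, with a median of -0.25. The extremes were the APC/C subunits *Anapc4* (0.69) and *Anapc7* (-1.10). VHL-KO replicate 4 was the lowest library for *Anapc4* (31.0, 29.7 and 6.55 CPM against 36.9, 31.3 and 40.5 CPM). It was the highest for *Anapc7* (45.2, 38.5 and 133 CPM against 33.0, 32.4 and 35.6 CPM). The 13 other cyclins, which act in transcription, DNA damage and other processes more than in the cycle, gave 0 calls and a median of 0.27, from *Ccnk* at -0.19 to *Ccnj* at 1.08. Their median level in VHL-KO replicate 4 was 0.181 times that of the other VHL-KO libraries. The 7 tested of 11 cell cycle cyclins had a median of 0.13, from *Ccnd3* at -0.84 to *Ccnd2* at 1.12, and *Ccnd3* was at 0.33 without VHL-KO replicate 4.

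The 18 genes of the early response to growth factors, transcribed within minutes of a stimulus or of tissue dissociation, gave 0 calls and a median of 0.24. Again, 2.65% of all genes tested were called higher and 4.68% lower. The early response genes differed widely between libraries. Their summed level was 2744, 3412 and 663 CPM under VHL-KO and 3684, 825 and 3560 CPM under VHL-KO;SETD2-KO. The 2 low libraries were VHL-KO replicate 4 and VHL-KO;SETD2-KO replicate 3, as for the mitotic list. *Fos* had 403, 473 and 2.62 CPM under VHL-KO and 635, 89.3 and 542 CPM under VHL-KO;SETD2-KO, and *Btg2*, an antiproliferative gene, had the highest estimate at 0.70. *Myc*, the growth regulator, was lowest at -0.56 (8.00, 12.7 and 8.23 CPM against 5.63, 6.93 and 7.09 CPM). It was the only 1 of the 18 without overlap, where 11.0% of all genes were lower without overlap. *Spp1*, osteopontin, was at 1200 CPM in VHL-KO;SETD2-KO replicate 3 and made up most of the sum of the 7 markers of injured tubule there (1217 CPM, against 81.3 to 278 CPM elsewhere). Only 2 of the 7 markers, *Spp1* and *Krt20*, were highest in that library. *Havcr1*, KIM-1 of injured proximal tubule, was at 0.394 CPM there. It was at 0.159 and 0.439 CPM in VHL-KO;SETD2-KO replicates 2 and 4, and at 1.22 to 1.94 CPM under VHL-KO. The median of this list was -0.25 without VHL-KO replicate 4, and those of the other cyclins and of the RB, E2F and DREAM factors, at 0.27 and 0.25 with it, were -0.0951 and -0.06. The part of injury or dissociation in these levels was not tested.

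**Figure D5:**
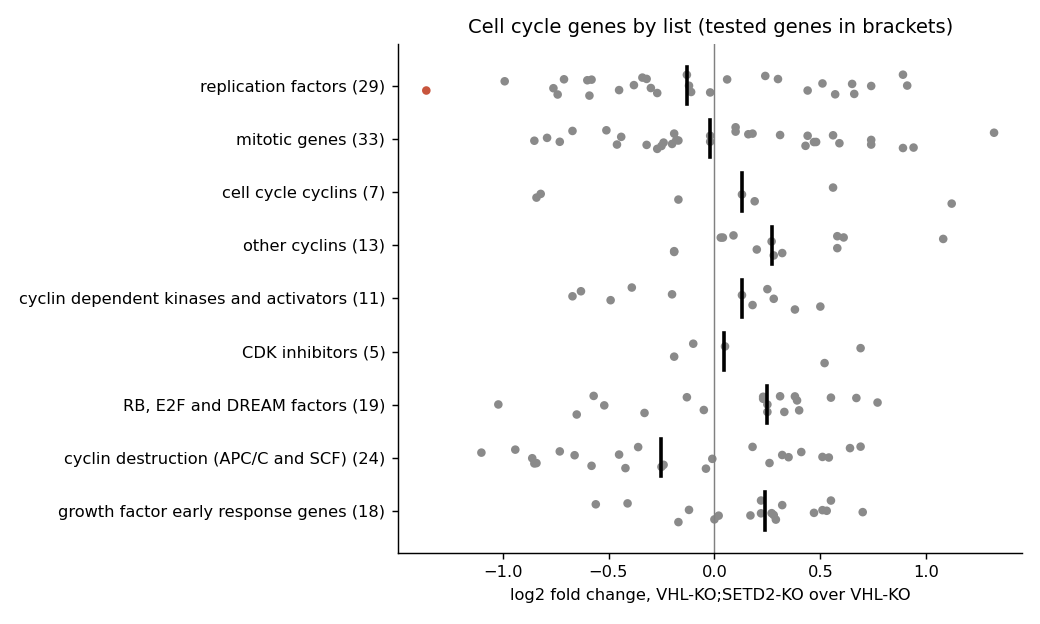
Each point is the log2 fold change of VHL-KO;SETD2-KO over VHL-KO (horizontal axis) of 1 tested gene, grouped by list with the number tested in brackets. The red point is *Tk1* at -1.36, the only gene called at an unadjusted p under 0.05 with a fold change of at least 1.5, and black lines mark list medians, from -0.25 for cyclin destruction to 0.27 for other cyclins.

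Other cycling cells could add to these transcripts. Summed levels of 9 lymphocyte markers ran from 5.41 to 22.9 CPM, of 9 macrophage markers from 160 to 797 CPM, of 5 erythroid genes from 534 to 1884 CPM and of 8 stromal markers from 86.8 to 427 CPM over the 6 libraries. The 8 markers of thick limb and distal tubule summed to between 1395 and 4971 CPM, and the 10 of collecting duct to between 60.3 and 615 CPM. The sum of each of these 6 lists was highest in VHL-KO replicate 4, where *Mki67* was lowest. Single markers were mixed: 7 of 9 lymphocyte, 5 of 9 macrophage, 5 of 5 erythroid, 4 of 8 stromal, 4 of 8 thick limb and distal and 5 of 10 collecting duct markers were highest there, and some were lowest there, such as *Slc12a1* at 79.2 CPM and *Ptprc* at 3.27 CPM. The part of any of these cells in the 10 genes was not tested.

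The genes most like the mean log2 CPM of the 5 tested mitotic genes over the 6 libraries were *Gm4617*, *St7l*, *Mettl25*, *Fam114a2*, *Arhgef38*, *Tpt1-ps3*, *Spats2l*, *Nfib*, *Tiprl* and *C2cd2*, with Pearson r from 0.982 to 0.993. Over the 5 libraries without VHL-KO replicate 4 they were *Phf14*, *Prpf19*, *Larp7*, *Zfp367*, *Rraga*, *Fam45a*, *Krcc1*, *Arfip1*, *Gm12715* and *Sf3b4* (r from 0.988 to 0.995). No gene was in both lists. The other mitotic genes had a median r of 0.73 over 6 libraries and 0.66 over 5, the 8 endothelial markers of 0.72 and 0.56, and all genes of 0.04 and 0.02. For *Ccnd1* the likest genes over 6 libraries were *Prx*, *Synpo*, *Cdc42ep2*, *Homer3*, *Dab2ip*, *Fam53b*, *Lrp5*, *Pygb*, *Aplp1* and *Cdkn1c* (r from 0.994 to 0.996). Over 5 libraries they were *Cdc42ep2*, *Megf9*, *Arhgef18*, *Clip1*, *Mvp*, *Csnk1e*, *Ntng2*, *Clasp2*, *Efnb1* and *Wt1os* (r from 0.997 to 0.999). *Synpo* and *Cdkn1c* are podocyte markers. With so few libraries sharing depth and composition, many genes reach a high r: 25% of all genes exceeded 0.8 with the mitotic mean over 6 libraries and 8.76% with *Ccnd1*, or 15% with *Ccnd1* over 5.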

How the data were processed

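The 10 genes, the cell cycle and marker lists, and the motifs were chosen with earlier results of these data known. Per the labels and methods, total RNA of freshly isolated PTECs was made into directional libraries and sequenced as paired ends of 150 bases. The authors deposited raw counts per gene symbol, with no normalization. The submitters' processing notes name HISAT2 2.0.4 and GRCm38. The counting program, its annotation and its use of strand are not given in the sources used here, so reads shared by overlapping genes or near-identical copies cannot be told apart.

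The deposited counts were scaled by TMM factors and compared between the labels, with no covariate, by edgeR's quasi-likelihood test (version 4.0.16, R 4.3.3). Of 46095 genes, 14611 passed edgeR's filterByExpr, and p-values were adjusted over all 14611 by the Benjamini-Hochberg method. A gene was called at p under 0.05 with an unshrunken fold change of at least 1.5. *Ccnb1* did not pass the filter and was compared by exact permutation of log2 CPM (prior count 2). Intervals are 95%. DESeq2 1.42.0, limma-voom (limma 3.58.1), other size factors and library sizes, other filters, the replicate number as a block and leaving out each library were alternatives, and the offset for GC content and length was added after the data were seen. The edgeR, DESeq2 and limma-voom fits were first checked on simulated counts. GENCODE M21 gave the length and GC content of the longest transcript for 96.7% of tested genes, and RefSeq the promoters. The ratio of VHL-KO replicate 4 to the other VHL-KO libraries used a pseudocount of 0.5 CPM for the correlations across genes.

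Genes named are the 10, *Setd2*, *Vhl*, each list's called genes and its highest and lowest estimate, and the 10 genes most like the mitotic mean and *Ccnd1*. Other genes, among them the single cell type markers, *E2f6*, *Cdc25a*, *Cdk2*, *Cdk4*, *Fos* and *Mcm3* to *Mcm7*, and the likeness of *Ccnd2*, were chosen after values were seen. Sample columns not used numbered 0.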

Additional observations from a re-analysis of the deposited data

How the results depend on the processing

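Of 130 alternative estimates of the 9 tested genes, 113 kept their direction and their side of the threshold, 3 passed the threshold (all *Ccnd2*) and 14 changed sign. *Ccnd2* was at 1.15 with no filter on low counts and at 1.15 with at least 10 counts in every library, which gave 1 member called higher in each. *Top2a* was at 0.0075 with no filter, 0.0538 by limma-voom and 1.00 with the replicate block, *Ccnb2* at 0.0479 with the replicate block and *Cdk1* at -0.20 with the GC and length offset. Limma-voom and the block moved the median of all genes to 0.13 and 0.11. Replicate numbers 2 and 4 occur under both labels, and deviations of same-numbered libraries from their label means correlated at 0.16 and -0.32. VHL-KO replicate 4 enters the VHL-KO mean behind both values, so they cannot decide whether the numbers pair the libraries. With the block *Ccnd2* was at 1.60, *Mki67* at 1.59 and *Ccna2* at 1.39, none called. Replicate 1 occurs only under VHL-KO and replicate 3 only under VHL-KO;SETD2-KO, so block estimates rest on replicates 2 and 4 alone.

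Leaving out 1 library at a time, estimates ran from -0.0372 to 0.93 for *Mki67*, -0.43 to 0.47 for *Top2a*, -0.0558 to 0.48 for *Cdk1*, -0.40 to 0.0528 for *Ccnb2*, -0.66 to 0.0207 for *Mcm2*, -1.33 to -0.30 for *Ccne1*, 0.0879 to 0.95 for *Ccna2*, -0.0188 to 0.45 for *Ccnd1* and 0.86 to 1.43 for *Ccnd2*, with 0 to 1 members called higher. Over all genes, unadjusted calls ran from 179 to 1243 higher and 206 to 1078 lower, and adjusted lower calls from 0 to 1. In the lists these fits called 0 to 1 replication factors, mitotic genes, cell cycle cyclins, kinases and CDK inhibitors higher. They called 0 to 2 replication factors, mitotic genes and kinases and 0 to 1 cyclin destruction and early response genes lower. List medians ran from -0.18 to 0.0804 for replication factors -0.19 to 0.12 for kinases, -0.24 to 0.33 for mitotic genes, -0.14 to 0.0481 for cell cycle cyclins, -0.0951 to 0.49 for other cyclins, -0.23 to 0.37 for CDK inhibitors, -0.06 to 0.49 for RB, E2F and DREAM factors, -0.36 to -0.00347 for cyclin destruction and -0.25 to 0.88 for early response genes.

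For all genes, where 387 were called higher and 684 lower unadjusted, no filter gave 634 higher, the replicate block 93 and 54, the offset 810 and 1279, and DESeq2 1133 lower. Adjusted calls were 1 higher and 56 lower by DESeq2, 2 lower with no filter and 0 lower with at least 10 counts. The replicate block called 1 replication factor, 1 mitotic gene and 1 early response gene higher and 0 replication factors lower, with medians of 0.00589 and 0.69 for the first 2 lists and -0.0216 for kinases. The offset called 4 replication factors, 1 mitotic gene, 1 kinase and 1 cyclin destruction gene lower and 1 CDK inhibitor higher, with medians of -0.13 for kinases and 0.39 for CDK inhibitors (0.45 by limma-voom). No filter called 1 cell cycle cyclin higher and 1 lower with a median of -0.25, and at least 10 counts called 1 higher. Kinase medians were 0.0225 and 0.00626 under these filters, and DESeq2 called 1 cyclin destruction gene lower. The cause of these shifts was not tested.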
